A study of Mus musculus with 24 samples.

Results

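The histone mark H3K27ac (acetyl-lysine 27 of histone H3), found on active regulatory DNA, was followed at 10 genes of myelin and of the oligodendrocyte lineage: Sox10, Olig2, Olig1, Mbp, Mag, Mog, Mobp, Cnp, Cldn11 and Opalin. The genes were chosen by name, and every peak that the deposited matrix assigns to one of them was taken, which gave 122 of 144154 peaks. All 122 passed the filter on low counts, which asks for about 10 reads in 3 libraries, but 8 of them (6.56%, against 3.37% of all peaks) reached that level only through the libraries of mice given foot shocks (CFC, below). For those 8 a higher level after shock is partly fixed by the filter. Promoter peaks were those with an edge no more than 1000 bp from the transcription start site (TSS) that the file names for them, which held for 16 member peaks in 9 genes and left 106 other peaks. Opalin had no promoter peak. At the edge of this definition, a Mobp peak 912.5 bp from its TSS was counted as a promoter peak, and an Olig1 peak 1318 bp away was not.

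The nuclei came from the dentate gyrus of male C57BL/6J mice, 12 weeks old, and were sorted for the neuronal protein NeuN, while the sample titles name the hippocampus. There were 4 groups of 3 libraries each, by the sample labels. The matrix columns give treatment and replicate but no antibody, and were taken as the H3K27ac libraries. HDACi-CFC mice were given CI-994, which inhibits the class I histone deacetylases, at 30 mg/kg into the peritoneum, and 1 h later went through contextual fear conditioning (CFC), with 2 foot shocks of 0.2 mA after 3 min in the chamber. HDACi-Context mice had the same drug and chamber but no shock. Veh-CFC and Veh-Context mice had the carrier alone (DMSO, Kolliphor and saline, which the drug groups received too) before CFC or before the chamber without shock. All mice were killed 1 h after the test. Because the protocol was set per cage, shock cannot be told apart from cage. The labels do not say whether a library holds 1 animal or several, so p-values measure the spread between these libraries, which may be technical.

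Oligodendrocytes wrap axons in myelin, a stack of compacted membrane that speeds conduction. Sox10 and Olig2 are transcription factors that set up and hold the identity of the lineage, and Sox10 acts directly on myelin gene enhancers. NeuN is a protein of neuronal nuclei and is not made by oligodendrocytes, so the members are genes of a cell type that a NeuN sort is meant to leave out.

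Promoter sequence is shown for 5 members whose promoter peaks are described below, both CpG-rich and CpG-poor. The windows are the 250 bases before the start given by RefSeq on GRCm38.p6, the assembly behind the mm10 coordinates of the files, written along the strand of the gene with each CG in capitals. Olig2 lies at chr16:91225300-91225549 on the plus strand, Cnp at chr11:100574689-100574938 plus, Mag at chr7:30914923-30915172 minus, Mobp at chr9:120149492-120149741 plus and Mog at chr17:37023399-37023648 minus. Only the Cnp window overlaps the promoter peak whose rise is described below. The Olig2 and Mag windows overlap no peak, and the nearest lie 96 and 175 bp away. Mag has other windows, of which that at 30914322 overlaps 1 peak. The Mobp and Mog windows each overlap 1 peak, which is not the one described as risen.
Olig2: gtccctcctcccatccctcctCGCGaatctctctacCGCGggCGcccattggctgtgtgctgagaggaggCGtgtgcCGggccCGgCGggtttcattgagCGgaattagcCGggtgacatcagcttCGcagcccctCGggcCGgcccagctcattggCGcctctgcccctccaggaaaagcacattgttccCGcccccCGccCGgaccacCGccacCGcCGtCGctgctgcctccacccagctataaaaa
Cnp: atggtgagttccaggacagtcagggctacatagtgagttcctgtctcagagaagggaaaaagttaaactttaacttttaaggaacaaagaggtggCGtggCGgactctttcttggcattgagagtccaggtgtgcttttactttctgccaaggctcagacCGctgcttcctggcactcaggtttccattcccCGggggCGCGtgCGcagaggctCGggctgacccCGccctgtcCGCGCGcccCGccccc
Mag: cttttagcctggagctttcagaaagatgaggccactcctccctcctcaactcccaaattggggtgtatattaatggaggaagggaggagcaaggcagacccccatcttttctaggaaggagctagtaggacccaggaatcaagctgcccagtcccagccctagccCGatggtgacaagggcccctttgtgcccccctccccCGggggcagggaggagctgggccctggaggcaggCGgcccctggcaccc
Mobp: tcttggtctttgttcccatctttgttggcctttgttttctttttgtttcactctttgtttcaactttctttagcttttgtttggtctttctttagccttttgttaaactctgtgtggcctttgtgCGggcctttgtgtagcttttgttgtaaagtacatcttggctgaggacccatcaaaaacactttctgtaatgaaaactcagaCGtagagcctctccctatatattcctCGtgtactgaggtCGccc
Mog: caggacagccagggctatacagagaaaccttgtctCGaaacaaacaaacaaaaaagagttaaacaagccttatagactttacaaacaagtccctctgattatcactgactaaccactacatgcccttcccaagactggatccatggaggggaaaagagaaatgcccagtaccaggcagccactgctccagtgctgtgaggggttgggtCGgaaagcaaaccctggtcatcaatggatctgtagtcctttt
These windows held 22 CG in Olig2, 13 in Cnp, 3 in Mag, 4 in Mobp and 2 in Mog, where the median of 32851 such windows was 6. Among the windows not shown, that of Cldn11 held 19 and that of Opalin 4, so a CpG-rich promoter was not particular to the lineage factor. The letters ACAAAG, a core that SOX proteins can bind, or their reverse complement CTTTGT occurred 6 times in the Mobp window, once each in those of Cnp and Mag, and not in those of Olig2 and Mog. Of all windows 16.5% held them at least once. A match is a description of the letters and not a bound site.

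Totals in peaks ran from 6639158 to 16734757 counts per library. Promoter peaks took a share of all counts of 25.2% to 25.4% in HDACi-CFC, 18.3% to 19.6% in HDACi-Context, 24.9% to 26.7% in Veh-CFC and 21.4% to 22.5% in Veh-Context libraries, so promoter peaks as a class moved with the groups. Levels below are CPM (read counts scaled by edgeR to the TMM-adjusted size of each library) and, between genes, CPM per kb of peak. In bulk libraries, fewer nuclei of a cell type and less mark per nucleus cannot be told apart.

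The members carried less of the mark than neuronal genes. For each gene the promoter peak with the highest mean count was taken (its highest promoter peak below), which need not be the highest per kb. Over the 9 member genes its median was 2.36 CPM per kb, against 4.63 for 10 general neuron markers, 4.42 for 10 granule neuron markers and 3.56 for 14154 genes. Of the 9 members 8 lay below that last value. Other glial lists were near the members, with medians of 2.47 for 24 other oligodendrocyte genes, 2.49 for 8 genes of oligodendrocyte precursors, 2.67 for 8 of astrocytes and 1.81 for 7 of microglia. In order of level, Mbp had 4.09 ± 0.92 CPM per kb, Cldn11 2.86 ± 0.63, Cnp 2.52 ± 0.99, Mog 2.43 ± 0.94, Mobp 2.36 ± 0.81, Olig1 2.07 ± 0.70, Sox10 2.06 ± 1.45, Mag 1.91 ± 1.22 and Olig2 1.59 ± 1.35 (SD over 12 libraries). Each neighbouring pair in that order differed by less than 1 SD of the higher gene, except Mbp and Cldn11. The chromatin state deposited with each peak, from a map whose tissue is not stated, was repressed for 32.8% of member peaks, against 4.24% of all peaks, and active enhancer for 24.6%, against 29.1%.

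**Figure D1:**
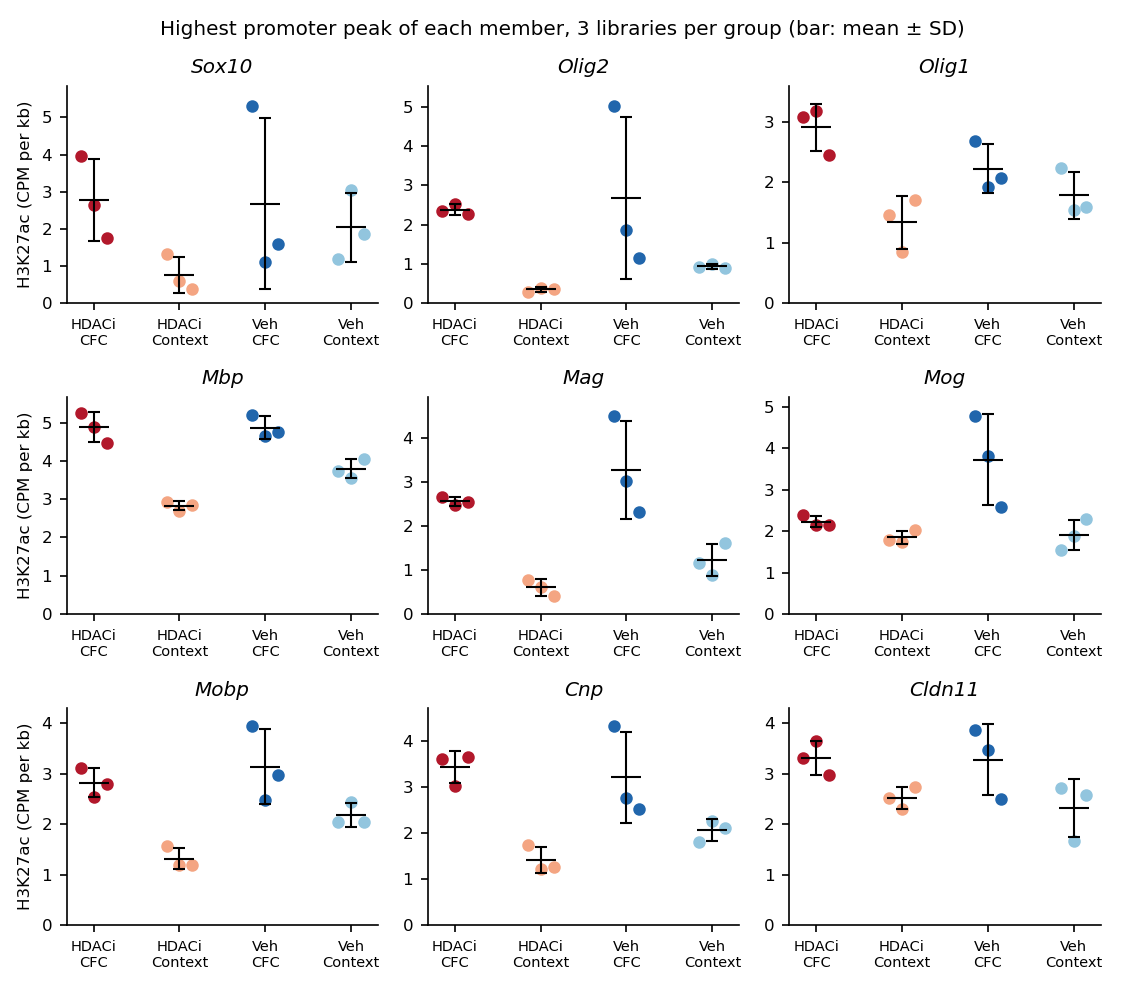
H3K27ac in CPM per kb (y axis) at the promoter peak with the highest mean count of each of 9 members, for the 4 groups (x axis). Points are the 3 libraries of a group, and bars give the mean and SD. At Mag all 3 HDACi-CFC libraries lie above all 3 HDACi-Context libraries, and the first Veh-CFC library is the highest of 12 at 7 of the 9 genes.

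More member peaks rose than fell after shock, with larger median changes under the drug than under vehicle. The median was also larger over the pooled peaks of the 3 lineage factor genes than over those of the other 7 members. By gene this did not hold throughout: under the drug it was 2.24 at Sox10 and 2.42 at Olig2, but 0.77 at Olig1. Mag, the highest of the other 7, had 0.72. Without peaks that passed the filter only through CFC libraries, the median was 1.91 at Olig2, 0.52 at Olig1 and 1.10 at Mag. In HDACi-CFC against HDACi-Context libraries, 10 of 16 member promoter peaks rose and 0 fell, where 45.3% of all promoter peaks rose. Of the 106 other member peaks 44 rose and 2 fell, where 15.8% of all other peaks rose and 20.5% fell. The median log2 change was 0.65 at member promoter peaks, against 0.42 for all promoter peaks, and 0.39 at other member peaks, against −0.14 for all other peaks. Without the 8 peaks that reached the filter level only through CFC libraries, 47 of 114 member peaks rose and 2 fell (median 0.39). Of all peaks that reached it through both CFC and Context libraries, 25639 of 138052 rose and 25246 fell (median −0.07). These changes are relative to the rest of a library. With scaling factors computed from promoter peaks alone (promoter-based factors below), the median of all peaks shifted to −0.54, and the member calls became 31 rises and 28 drops in place of 54 and 2. Such factors move all changes of a comparison by nearly the same amount, so calls outside the members move too. The share of all peaks called with them is not given here, so member counts with them have no background.

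Sox10, a transcription factor needed for myelin gene expression, had 6 peaks, and all 6 rose in HDACi-CFC against HDACi-Context (median log2 change 2.24), also with the promoter-based factors (6 rises, median 1.76). An intronic Sox10 peak at chromosome 15, 79161647 to 79162850, in the repressed state, had 3.69, 2.60 and 2.35 CPM in HDACi-CFC libraries, against 0.765, 0.232 and 0.340 in HDACi-Context libraries. It had 4.88, 3.08 and 2.41 CPM in Veh-CFC libraries, against 0.821, 1.77 and 0.809 in Veh-Context libraries. CFC libraries lay above Context libraries under either treatment, with no overlap. The log2 change was 2.72 ± 0.39 under the drug (SE, n = 3 per group, adjusted p = 5.0e-07) and 1.74 ± 0.36 under vehicle (adjusted p = 0.0036). The vehicle call was lost by DESeq2 and without Veh-CFC replicate 1, with an adjusted p of up to 0.063. The promoter peak of Sox10, at 79164682 to 79165744, which the file places at the TSS of the transcript Gm10863, rose less firmly (1.89 ± 0.61, adjusted p = 0.028). Its libraries spread widely, from 1.85 to 4.20 CPM in HDACi-CFC and from 0.408 to 1.39 in HDACi-Context, and the call was lost under 4 of 18 other settings, among them without HDACi-CFC replicate 1.

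Olig2, a basic helix-loop-helix factor that specifies the lineage, likewise had 6 peaks that all rose under the drug (median 2.42), and 5 rose with the promoter-based factors. Of these 6, 3 passed the filter only through CFC libraries, among them the promoter peak, so their rises are given as a description. The other 3 all rose under the drug, with a median of 1.91, and had a median of 0.60 under vehicle (1 rise). Its promoter peak, at chromosome 16, 91225645 to 91226384, held 1.74, 1.87 and 1.68 CPM in HDACi-CFC libraries, against 0.209, 0.290 and 0.272 in HDACi-Context libraries. In Veh-CFC libraries it held 3.72, 1.38 and 0.849 CPM, against 0.672, 0.736 and 0.662 in Veh-Context libraries. The HDACi-CFC values were close together and well above their controls, whereas the first Veh-CFC library stood far above the other two. Under the drug the log2 change was 2.72 ± 0.50 (adjusted p = 4.3e-05), and under vehicle 1.52 ± 0.47 (adjusted p = 0.038), a call lost under 6 of 18 settings. Since the filter partly fixes a higher CFC level at this promoter peak, these p-values are not support for its rise. These are small counts: 24, 18 and 20 reads in HDACi-CFC and 3, 5 and 4 in HDACi-Context libraries, and no more than 9 in any Context library. A wider Olig2 peak at the end of the gene, 91227594 to 91230468, rose by 1.91 ± 0.24 under the drug (adjusted p = 9.6e-08) and by 1.03 ± 0.23 under vehicle (adjusted p = 0.0067). The vehicle call was lost without Veh-CFC replicate 1 (adjusted p = 0.077).

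Olig1, the neighbouring paralogue of Olig2 with a role in oligodendrocyte maturation, was more mixed, with 6 of 10 peaks higher and 1 lower under the drug. Of these 10, 2 passed the filter only through CFC libraries, and the rises of both are given as a description. The other 8 had 4 rises and 1 drop, with a median log2 change of 0.52, against 0.77 for all 10. The Olig1 promoter peak, at chromosome 16, 91268060 to 91269493, had 4.42, 4.58 and 3.53 CPM in HDACi-CFC libraries, against 2.09, 1.22 and 2.45 in HDACi-Context libraries, without overlap (1.13 ± 0.25, adjusted p = 0.00043). Under vehicle the same peak had a change of 0.28 ± 0.28, which did not pass. The peak that fell lies between genes, 15501 bp from the TSS (−0.99 ± 0.36, adjusted p = 0.026). With the promoter-based factors Olig1 had 4 rises and 2 drops. The file holds no count of 0, and its lowest value, 1, stands 8 times among the members, in 2 Olig1 and 2 Olig2 peaks that all rose. Whether such a 1 was counted or filled in is not stated, and it enters their changes.

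Over these 3 factor genes, 22 peaks had a median log2 change of 1.89 under the drug, with 18 rises and 1 drop, and 19 of the 22 carry the repressed state. Without the 5 that passed the filter only through CFC libraries the median was 1.13, with 13 rises and 1 drop. The 100 peaks of the other 7 members had a median of 0.36, with 36 rises and 1 drop (0.32, 34 and 1 without 3 such peaks). With promoter-based factors the median was 1.41 for the factor genes (15 rises and 2 drops) and −0.13 for the other members (16 rises and 26 drops). Because these factors move both sets by nearly the same amount, the sign of each median follows from its starting value. The vehicle comparison, which shares no library with the comparison under the drug, gave medians of 0.57 (6 rises, 0 drops) and 0.21 (7 rises, 1 drop). Without the peaks that passed the filter only through CFC libraries, these were 0.45 (4 rises, 0 drops) and 0.20 (7 rises, 1 drop). No difference between the 2 sets of genes was tested, since the members were chosen with results known.

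**Figure D2:**
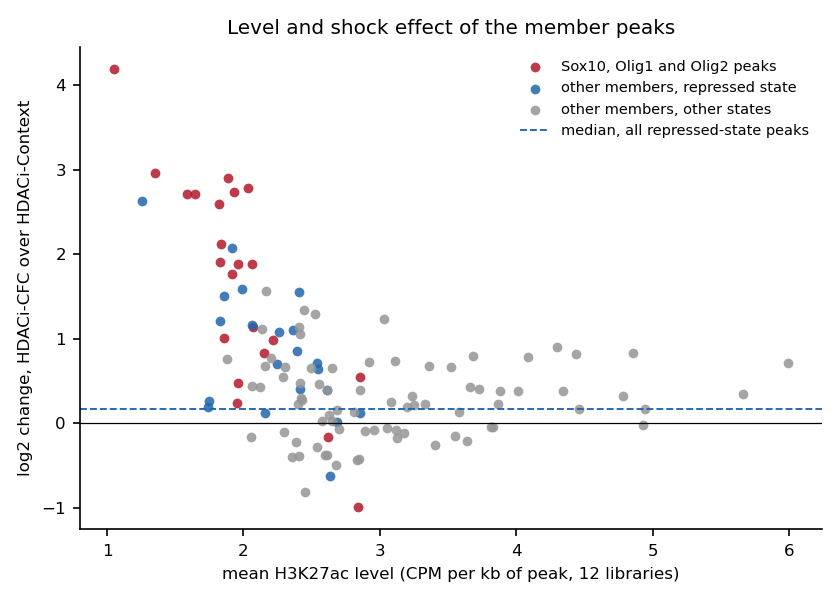
Log2 change in HDACi-CFC over HDACi-Context (y axis) against the mean level over 12 libraries in CPM per kb (x axis), 1 point per member peak. Peaks of Sox10, Olig1 and Olig2 sit at low levels and reach the highest changes, with a median of 1.89. Without the 5 that passed the filter only through CFC libraries their median is 1.13. The dashed line at 0.17 is the median of all repressed-state peaks.

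Mbp, which encodes the basic protein that holds the inner faces of myelin together, had the most peaks of any member (34), over a locus with 2 starts. The start at 82475123 of chromosome 18 belongs to the long Golli transcripts, which neurons and immune cells are known to make too, and that at 82554508 to the myelin transcripts. Of 15 peaks named for the upstream start 8 rose under the drug with a median of 0.38, and of 19 named for the downstream start 8 rose with a median of 0.66. Among the risen Mbp peaks, 1 had passed the filter only through CFC libraries. The promoter peak of the myelin start, 25482 bp wide, had 134, 125 and 114 CPM in HDACi-CFC libraries, against 74.9, 68.7 and 72.8 in HDACi-Context libraries. In Veh-CFC libraries it had 133, 118 and 121 CPM, against 95.5, 90.8 and 103 in Veh-Context libraries. Neither pair of groups overlapped, and the log2 change was 0.78 ± 0.10 under the drug (adjusted p = 9.2e-08) and 0.36 ± 0.10 under vehicle (adjusted p = 0.028). The vehicle call was lost with promoter-based factors and without Veh-CFC replicate 1, Veh-Context replicate 1 or Veh-Context replicate 2 (adjusted p up to 0.51). Beside the upstream start, an intronic promoter peak at 82475383 to 82481418 rose over both treatments by 0.64 ± 0.09 (adjusted p = 3.3e-07). The Mbp median was −0.10 with promoter-based factors, with 6 rises and 7 drops.

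Mag, an adhesion protein on the myelin membrane that faces the axon, gave the smallest adjusted p of any member promoter peak. The peak at chromosome 7, 30912404 to 30914547, is intronic by the deposited annotation and in the repressed state. It held 5.72, 5.30 and 5.46 CPM in HDACi-CFC libraries, against 1.67, 1.33 and 0.884 in HDACi-Context libraries. It held 9.63, 6.47 and 4.95 CPM in Veh-CFC libraries, against 2.46, 1.91 and 3.45 in Veh-Context libraries. Every CFC library was above every Context library. The log2 change was 2.08 ± 0.26 under the drug (adjusted p = 2.4e-08) and 1.37 ± 0.24 under vehicle (adjusted p = 0.00090), and both calls held under all 18 other settings. The second Mag promoter peak, at 30915347, did not pass (0.64 ± 0.43 under the drug).

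Cnp, a phosphodiesterase of the uncompacted myelin layers, had a promoter peak 12414 bp wide that rose under the drug by 1.29 ± 0.16 (adjusted p = 1.5e-06). It held 44.8, 37.5 and 45.2 CPM in HDACi-CFC libraries, against 21.5, 15.1 and 15.7 in HDACi-Context libraries. In Veh-CFC libraries it held 53.7, 34.2 and 31.3 CPM, against 22.3, 28.1 and 26.2 in Veh-Context libraries (0.65 ± 0.17, adjusted p = 0.021). The vehicle call was lost under 4 of 18 settings, among them without Veh-CFC replicate 1 or Veh-Context replicate 1 (adjusted p up to 0.16). All 3 CFC libraries were above their controls in both cases. The other 6 peaks named for Cnp lie in its neighbours Dnajc7 and Ttc25, and 1 of them rose under the drug.

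Mobp, a small basic protein of compact myelin, had 20 peaks, of which 7 rose under the drug and 0 fell. Without 1 peak that passed the filter only through CFC libraries, 6 of 19 rose. A promoter peak inside the gene, at chromosome 9, 120150655 to 120152699, had 6.38, 5.20 and 5.71 CPM in HDACi-CFC libraries, against 3.20, 2.43 and 2.45 in HDACi-Context libraries (1.11 ± 0.20, adjusted p = 4.3e-05). The peak over the TSS, at 120149576, did not pass (0.39 ± 0.36). Mog, an immunoglobulin-like protein of the outer myelin surface, had no call among its 4 peaks under the drug, whereas its intronic promoter peak rose under vehicle. That peak, at chromosome 17, 37021615 to 37023254, held 7.84, 6.26 and 4.25 CPM in Veh-CFC libraries, against 2.54, 3.09 and 3.75 in Veh-Context libraries (0.97 ± 0.23, adjusted p = 0.0082). The groups did not overlap, but the call was lost under 2 settings, one of them without Veh-CFC replicate 1.

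Cldn11 encodes the claudin of the tight junctions between myelin layers. The higher of its 2 promoter peaks, at chromosome 3, 31150296 to 31153750, had 11.4, 12.6 and 10.2 CPM in HDACi-CFC libraries, against 8.69, 7.94 and 9.45 in HDACi-Context libraries. The change of 0.39 ± 0.16 barely passed (adjusted p = 0.047), was lost under 11 of 18 settings and turned to −0.10 with promoter-based factors. An upstream Cldn11 peak at 31145766 fell under vehicle (−0.90 ± 0.25, adjusted p = 0.022), a call lost without any 1 of the 3 Veh-CFC libraries or without Veh-Context replicate 1 (adjusted p up to 0.090). Opalin, a membrane glycoprotein of oligodendrocytes, had 14 peaks without a promoter peak, and 6 rose and 0 fell under the drug. Of those 14 peaks 10 lie inside its neighbour Tll2, so the gene named beside them is not the one they lie in.

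**Figure D3:**
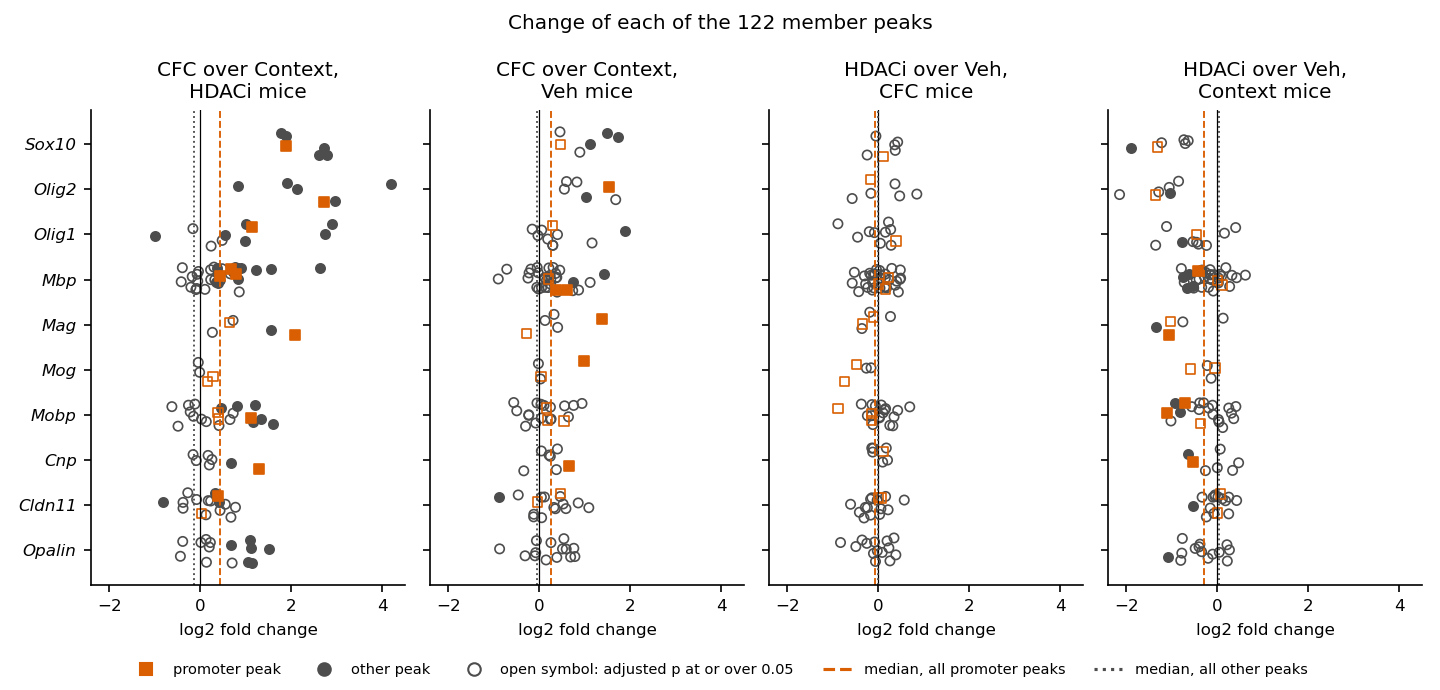
Log2 fold change (x axis) of each of the 122 member peaks by gene (y axis) in 4 comparisons, with squares for promoter peaks, circles for other peaks and filled symbols for adjusted p under 0.05. Lines mark the medians of all promoter peaks and all other peaks. The Sox10 and Olig2 peaks all lie right of 0 after shock under the drug. Of the Olig2 peaks, 3 passed the filter only through CFC libraries. In CFC mice no symbol is filled for the drug effect.

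In vehicle mice, with Veh-CFC set against Veh-Context, 6 of 16 member promoter peaks rose and 0 fell, where 14.1% of all promoter peaks rose. Among other member peaks 7 rose and 1 fell, where 2.71% of all other peaks rose and 3.14% fell. The median log2 change was 0.41 at member promoter peaks, against 0.25 for all promoter peaks, and 0.24 at other member peaks, against −0.05. Without the 8 peaks that reached the filter level only through CFC libraries, 11 of 114 member peaks rose and 1 fell (median 0.24). Of all peaks that reached it through both CFC and Context libraries, 5650 of 138052 rose and 3919 fell (median −0.02). Over all 122 member peaks the calls were 8 rises and 6 drops with promoter-based factors. DESeq2 called 8 peaks in place of 14. The first Veh-CFC library carried the most of the members' mark: its summed promoter peaks came to 316 CPM, against 252 and 242 in the other Veh-CFC libraries and 196 to 211 in Veh-Context libraries. Without it, 1 member peak was called, the Mag promoter peak (1.09 ± 0.26, adjusted p = 0.026), and 4 were called without Veh-Context replicate 1. Microglia promoter peaks moved with the same library, at 60.8 CPM in it, 46.9 and 52.1 in the other Veh-CFC libraries and 36.1 to 42.6 in Veh-Context libraries. Of the Veh-CFC libraries it was also highest for oligodendrocyte precursors (112, against 94.1 and 95.8). The same held for other oligodendrocyte genes (495, against 478 and 482) and for endothelial and mural markers (19.3, against 14.4 and 18.0). It was lowest for astrocytes (145, against 148 and 156), neurons (762, against 810 and 788) and granule neurons (588, against 632 and 674). All these sums are of promoter peaks. Summed over other peaks, the same library was instead highest for astrocytes (448, against 415 and 426) and lowest for oligodendrocyte precursors (825, against 899 and 921). The remaining lists kept their direction there. The part of other cell types in the result was not tested.

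Over both treatments, with 6 CFC and 6 Context libraries, 11 of 16 member promoter peaks rose and 0 fell, where 48.4% of all promoter peaks rose. Of the 106 other member peaks 46 rose and 3 fell, where 16.7% of all other peaks rose and 22.5% fell. The member peaks here include the 8 that reached the filter level only through CFC libraries. Promoter-based factors gave 29 rises and 30 drops.

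By chromatin state, the 40 member peaks of the repressed state had a median log2 change of 1.10 in HDACi-CFC against HDACi-Context, with 25 rises and 1 drop, where 25.7% of all repressed-state peaks rose and their median was 0.17. Of these 40, 19 are peaks of Sox10, Olig1 and Olig2, and the 21 of the other members had a median of 0.72 (9 rises, 0 drops). The 40 also include peaks that passed the filter only through CFC libraries, among them 3 of Olig2 and 1 of Mag. The 30 member peaks of the active enhancer state had a median of 0.39 with 18 rises and 0 drops, where 28.7% of all active enhancer peaks rose. With promoter-based factors the repressed-state members still had a median of 0.61 (21 rises, 2 drops), against −0.32 for all repressed-state peaks.

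Markers of other cell types were set beside the members in the same comparison. Promoter peaks of 24 other oligodendrocyte genes had a median log2 change of 0.66 (20 of 42 rose, 0 fell), those of oligodendrocyte precursors 1.23 (8 of 13 rose, 0 fell) and those of microglia 0.78 (6 of 10 rose, 1 fell). Astrocyte promoter peaks had 0.39 (5 of 10 rose), those of general neuron markers 0.37 (10 of 19 rose) and those of granule neuron markers, the main neurons of the dentate gyrus, 0.55 (8 of 14 rose). All promoter peaks had 0.42 with 45.3% risen, so the share of 20 of 42 was near the background. Outside promoters, 80 of 282 peaks of other oligodendrocyte genes rose and 35 fell (median 0.20), whereas 30 of 177 peaks of neuron markers rose and 78 fell (median −0.39), beside 15.8% risen and 20.5% fallen of all other peaks. The peaks of oligodendrocyte precursor genes ran the other way there, with 12 of 101 risen and 24 fallen (median −0.20), and those of granule neuron markers had 18 of 168 risen and 34 fallen (median −0.25). Those of microglia had 12 of 48 risen and 5 fallen (median 0.26). For astrocytes 15 of 90 rose and 12 fell (median −0.03), and for endothelial and mural markers 7 of 41 rose and 9 fell (median −0.08). All of the 10 members and of the 10 neuron markers had a peak, as did all astrocyte and microglia markers, while 3 of 10 endothelial and mural markers had none. Of 29 other oligodendrocyte genes 27 had a peak and 24 a promoter peak, and of 10 precursor genes 9 and 8. The summed member promoter peaks came to 264 to 288 CPM in HDACi-CFC, 153 to 169 in HDACi-Context, 242 to 316 in Veh-CFC and 196 to 211 in Veh-Context libraries. Neuron promoter peaks summed to 793 to 836 CPM in HDACi-CFC, 497 to 549 in HDACi-Context, 762 to 810 in Veh-CFC and 628 to 701 in Veh-Context libraries. The part of other cell types in the member changes was not tested.

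**Figure D4:**
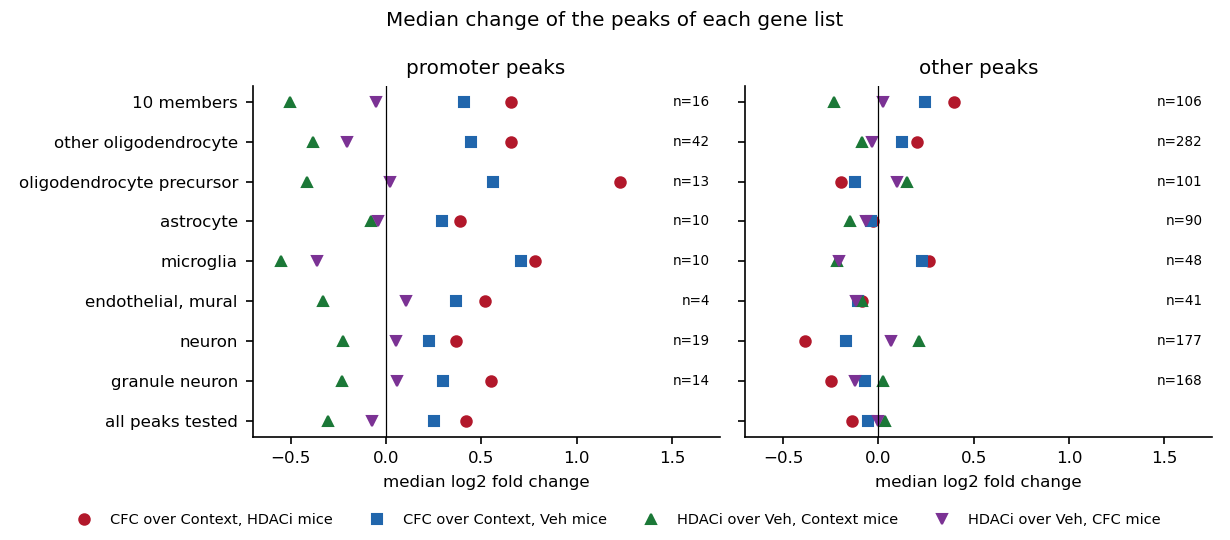
Median log2 fold change (x axis) of the peaks of 8 gene lists and of all peaks tested (y axis), promoter peaks left and other peaks right, with 1 symbol per comparison. Outside promoters the members have a median of 0.39 after shock under the drug, while the general neuron markers have −0.39. The members' peaks include those that passed the filter only through CFC libraries. With promoter-based factors the medians of the members' other peaks and of all other peaks become −0.09 and −0.63.

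The drug effect in mice without shock, HDACi-Context against Veh-Context, ran downward at the members. It shares the HDACi-Context libraries with the shock comparison under the drug, so low values there enter both. Of the 16 member promoter peaks 5 fell and 0 rose, where 21.3% of all promoter peaks fell. Of the 106 other member peaks 13 fell and 0 rose, where 3.15% of all other peaks fell. Medians were −0.50 at member promoter peaks, against −0.30 for all promoter peaks, and −0.23 at other member peaks, against 0.04. With promoter-based factors the 18 drops became 9 rises and 7 drops, and there were 8 calls without HDACi-Context replicate 2, 8 without HDACi-Context replicate 3 and 7 without Veh-Context replicate 3.

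The smallest adjusted p among these drops belonged to a broad peak inside Mbp. The peak at chromosome 18, 82523976 to 82543598, is the member peak with the highest level (6.00 CPM per kb) and is an active enhancer by state. It held 80.2, 81.4 and 71.4 CPM in HDACi-Context libraries, against 118, 116 and 138 in Veh-Context libraries. The groups were well apart (−0.68 ± 0.10, adjusted p = 1.6e-05), and the call held under all 18 other settings. In CFC mice the same peak had 119, 129 and 133 CPM in HDACi-CFC libraries, against 139, 148 and 139 in Veh-CFC libraries, and did not pass (−0.16 ± 0.10).

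Just upstream of Mag, the peak at 30916285 to 30917556 had 1.74, 1.10 and 0.884 CPM in HDACi-Context libraries, against 2.91, 3.39 and 3.23 in Veh-Context libraries. The groups did not overlap (−1.35 ± 0.28, adjusted p = 0.0011), and the call held under all 18 other settings. The Mag promoter peak fell as well (−1.06 ± 0.29, adjusted p = 0.013), a call lost when HDACi-Context replicate 2, HDACi-Context replicate 3 or Veh-Context replicate 3 was left out. The promoter peaks of Cnp (−0.55 ± 0.17, adjusted p = 0.042), of Mobp inside the gene (−0.71 ± 0.22, adjusted p = 0.030) and of Mbp at the myelin start (−0.42 ± 0.10, adjusted p = 0.0054) fell too. The call of Cnp was lost under 9 of 18 settings, that of Mobp under 7 and that of Mbp under 3. Among the 40 repressed-state member peaks 8 fell and 0 rose (median −0.67), where 5.86% of all repressed-state peaks fell. The 21 of them outside Sox10, Olig1 and Olig2 had a median of −0.49 with 5 drops. The 22 peaks of Sox10, Olig1 and Olig2 had a median of −0.82 with 3 drops.

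In mice that were shocked, HDACi-CFC against Veh-CFC, 0 of the 122 member peaks passed by edgeR, where 0.918% of all peaks did. At an unadjusted p under 0.05 there were 4 higher and 4 lower, a smaller share than the 12.2% of all peaks, and DESeq2 called 0 as well. Without Veh-CFC replicate 3, 1 member peak was called. The medians were −0.05 at member promoter peaks, against −0.08 for all promoter peaks, and 0.02 at other member peaks.

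Over both behaviours, HDACi against vehicle, 3 of 16 member promoter peaks fell and 0 rose, where 21.9% of all promoter peaks fell. Among other member peaks 11 fell and 1 rose, where 2.99% of all other peaks fell and 3.71% rose. With promoter-based factors there were 7 rises and 4 drops in place of 1 and 14. The small peak over the TSS of Mobp, at chromosome 9, 120149576 to 120150205, had 1.23, 1.04 and 1.43 CPM in HDACi-CFC libraries, against 1.93, 2.44 and 2.55 in Veh-CFC libraries. It had 0.765, 1.22 and 0.816 CPM in HDACi-Context libraries, against 2.09, 2.80 and 1.47 in Veh-Context libraries. Drug libraries lay below vehicle libraries in both behaviours (−0.99 ± 0.24, n = 6 per group, adjusted p = 0.0049), though the call was lost by DESeq2.

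The interaction, the difference between the shock effects under drug and under vehicle, passed at 0 member peaks by edgeR, where 0.0347% of all peaks passed. At an unadjusted p under 0.05, 21 member peaks were positive and 2 negative, beside 10663 positive and 5868 negative of all peaks (11.5%). DESeq2 called 3, all in Mbp, among them the peak at 82523976 (0.53 ± 0.14, adjusted p = 0.012). Without Veh-CFC replicate 1 edgeR called 8 member peaks, all positive, of which 3 lay at Sox10, 2 at Mbp and 1 each at Mag, Cnp and Olig2. The Cnp promoter peak had the smallest adjusted p among them (0.92 ± 0.18, adjusted p = 0.0034). Leaving out HDACi-Context replicate 1 gave 7 calls and Veh-Context replicate 1 gave 2. The share of all peaks called by DESeq2 or without 1 library is not given here. These member counts therefore have no background beside them. With all 12 libraries, the shock effects under drug and under vehicle were thus told apart at these 3 Mbp peaks by DESeq2 and at no member peak by edgeR.

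Across the 12 libraries, which share the group structure, each member's highest promoter peak was set against the mean of the other members. Pearson r ran from 0.63 (Cldn11) and 0.68 (Mog) to 0.96 (Olig2 and Cnp), given as a description. The low end lay near the median over all genes, given next. The promoter peaks most like the members' mean pattern were those of Clasrp (r = 0.99), Rusc2 (0.99), Fam102a (0.99), Plxnb1 (0.98) and Pisd (0.98), out of 14145 genes with a median r of 0.61.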

How the data were processed

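H3K27ac ChIP-seq was analysed in 12 libraries in 4 groups of 3 by the sample labels, whereas the series' design text gives 3 treatments with 4 replicates. The matrix columns name no antibody and were taken as the immunoprecipitated libraries. Per the submitters' processing notes the build was mm10, and the tools, without roles or settings, included HOMER 4.11, DiffBind 2.16.2, MACS2, Bowtie2 2.3.5 and DESeq2 1.28.1. The authors deposited whole-number read counts per peak, raw by their values, with a lowest value of 1 that may have been filled in, and per the file headers each peak's width, signed distance to a TSS, place, gene and chromatin state. The 12 input libraries were not analysed here.

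Counts were tested with edgeR 4.0.16 in R 4.3.3: TMM factors, filterByExpr with a minimum count of 10 (140 peaks removed, 144014 tested), a model of 1 term per group over all 12 libraries, robust quasi-likelihood F tests in 7 contrasts, and Benjamini-Hochberg adjustment over all peaks at 0.05. Every adjusted p is from this test unless DESeq2 (version 1.42.0, an alternative) is named. The median biological coefficient of variation was 0.131. The fit was tested on simulated counts. CPM used TMM-adjusted totals, and log2 values for the likeness of genes a prior count of 2. No spike-in entered the scaling, so changes are relative.

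The members, lists and tests were chosen with earlier results of these data known. Named were the promoter peak with the highest mean count of each member, the 3 peaks with the smallest adjusted p per contrast (promoter and other peaks apart) and the highest other peak. The Olig1 drop, the second Mag promoter peak, the Mobp peak over the TSS in the shock contrast and the calls made without 1 library were picked after their values were seen. Alternatives were DESeq2 size factors (RLE), library totals, TMM factors from promoter peaks only, DESeq2, no filter, a replicate block, each library left out, and promoter edges of 0 and 5000 bp. All 10 symbols were found in RefSeq's gene table of GRCm38.p6, and promoter sequences for 7.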

Additional observations from a re-analysis of the deposited data

How the results depend on the processing

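Of 46 named peak results, 23 kept their call under all 18 other settings, and 1 reversed: the Cldn11 promoter peak at 31150296, at −0.10 for shock under the drug with TMM factors from promoter peaks. Those factors moved the median of all peaks by over 0.1, to 0.29 for the drug in Context, 0.16 for the drug over both behaviours, −0.25 for shock under vehicle, −0.54 for shock under the drug, −0.40 for shock over both treatments and −0.23 for the interaction. Library totals moved it to −0.18 for shock under the drug, from −0.05. DESeq2 called 8 member peaks for shock under vehicle, in place of 14, and 3 for the interaction, in place of 0. Leaving out 1 library at a time gave 45 to 58 calls for shock under the drug (56 with all), 54 to 62 for shock over both treatments (60), 1 to 18 for shock under vehicle (14), 7 to 21 for the drug in Context (18), 8 to 19 for the drug over both behaviours (15), 0 to 1 for the drug in CFC (0) and 0 to 8 for the interaction (0). For shock under vehicle there was 1 call without Veh-CFC replicate 1, 4 without Veh-Context replicate 1, and 9 without Veh-CFC replicate 2 or Veh-Context replicate 2. For the drug in Context there were 8 without HDACi-Context replicate 2 or 3 and 7 without Veh-Context replicate 3. For the drug over both behaviours there were 8 without HDACi-CFC replicate 2 or Veh-Context replicate 3, and 9 without HDACi-Context replicate 2 or 3 or Veh-Context replicate 1. The single call for the drug in CFC came without Veh-CFC replicate 3. For the interaction there were 7, 8 and 2 calls without HDACi-Context replicate 1, Veh-CFC replicate 1 and Veh-Context replicate 1. The causes were not tested. The share of all peaks called by DESeq2 or without 1 library is not given, so these member counts have no background beside them. With promoter peaks limited to the 4 that cover the TSS, the median of promoter minus other member peaks moved to −0.56 for the drug in Context, from −0.27, and to 0.63 for shock under the drug, from 0.26. Replicate numbers did not pair the samples: same-numbered libraries of different groups had correlations of −0.28 to 0.35, 2 of 18 over 0.1, and 5 of 12 libraries correlated best with their own number. The fit with a replicate block gave 53 calls for shock under the drug, 61 for shock over both treatments, 14 for shock under vehicle, 17 for the drug in Context, 14 for the drug over both behaviours and 0 for the drug in CFC and for the interaction. Counts under 10 at several Sox10, Olig1 and Olig2 peaks in Context libraries limit the precision of their changes.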
